A study of Caenorhabditis elegans with 4 samples.

Results

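The regions described here are the peaks of RNA polymerase II on chromosome II of *Caenorhabditis elegans* embryos, 459 of the 2672 peaks of ChIP replicate 1 and 643 of the 3818 peaks of ChIP replicate 2. They were chosen by position, as the peaks that lie on II, and were divided by midpoint into a left arm below 4.88 Mb, a centre up to 12.02 Mb and a right arm beyond it, in WS220 coordinates. The material was mixed-stage embryos of the wild-type strain N2, cultured at 20 °C, a mixed male and hermaphrodite population. An affinity-purified rabbit polyclonal antibody was directed at AMA-1, the largest polypeptide of the polymerase, and was used on 2 ChIP samples, and 2 matching inputs were taken, whose values are not analysed here. A series-level list from the same study held 18518 peaks, of which 2989 lay on II, and does not count as another replicate. The other 4 autosomes, I, III, IV and V, serve as the background. Since whole embryos were used, fewer cells with bound polymerase and less polymerase per cell cannot be told apart, and no label tells whether the replicates were separate cultures, so their spread may be technical.

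RNA polymerase II transcribes protein-coding genes, and a ChIP peak marks DNA that it occupied in at least part of the sampled nuclei. Worm autosomes have a gene-dense, rarely recombining centre, where many essential and broadly expressed genes and operons lie, flanked by arms that recombine often, carry more repeats and methylated histone H3 lysine 9, and hold many fast-evolving gene families. The arms of a chromosome are not equivalent in meiosis, since the centre at which homologues pair lies near 1 end, on II the left. No annotation of the files' build was used, so no gene is named for any region.

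Polymerase peaks were sparsest on the left arm of II and densest in its centre, in both replicates. In replicate 1 the left arm held 90 peaks over 4.88 Mb, a density of 18.4 peaks per Mb (95% Poisson interval 14.8 to 22.7), the centre 267 peaks at 37.4 per Mb (33.0 to 42.2) and the right arm 102 peaks at 31.3 per Mb (25.5 to 38.0). In replicate 2 the left arm had 160 peaks at 32.8 per Mb (27.9 to 38.3), the centre 357 peaks at 50 per Mb (44.9 to 55.5) and the right arm 126 peaks at 38.7 per Mb (32.2 to 46.0). The order centre, right arm, left arm was thus the same in each list, although replicate 2 held more peaks in every part. The centre exceeded both arms pooled by a log2 density ratio of 0.59 ± 0.11 (SD, n = 2), and the exact binomial interval of the ratio lay above 1 in replicate 1 (1.59, 1.31 to 1.92) and in replicate 2 (1.42, 1.21 to 1.67). Here and below, intervals are at 95% and reflect counting error alone, since adjacent peaks may depend on each other.

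The contrast was larger in value towards the left arm. The ratio of centre to left arm was 2.03 (1.59 to 2.60) in replicate 1 and 1.53 (1.26 to 1.85) in replicate 2. The ratio of centre to right arm was 1.19 (0.948 to 1.52) in replicate 1, an interval that includes 1, and 1.29 (1.05 to 1.60) in replicate 2. Measured as bases rather than numbers, peaks covered 7.23% of the left arm, 17.7% of the centre and 10.3% of the right arm in replicate 1, and 13.2%, 25.3% and 15.2% in the same order in replicate 2.

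Set directly against the right arm, the left arm was sparser in replicate 1, with a density ratio of 0.589 (0.439 to 0.790). In replicate 2 the ratio was 0.848 (0.667 to 1.08), so there a difference between the arms was not detectable by counting error. The mean log2 ratio of left to right arm was -0.50 ± 0.37 (SD, n = 2), a large spread for its size. The series-level list gave 152.3 peaks per Mb on the left arm and 173.1 on the right, a ratio of 0.880 (0.787 to 0.983). All 3 lists therefore placed the left arm below the right, by amounts that differed.

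**Figure D1:**
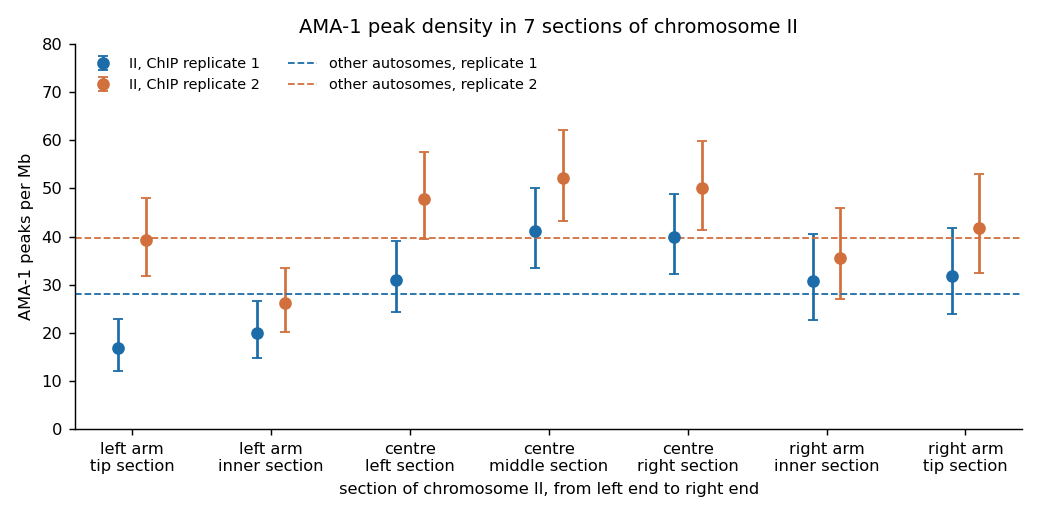
Density of AMA-1 peaks (peaks per Mb) in 7 sections of chromosome II, with each arm cut at its middle and the centre into 3 equal sections; points are the 2 ChIP replicates, bars exact 95% Poisson intervals and dashed lines the density over the other 4 autosomes. In replicate 1 the sections of the left arm have 16.8 and 20.1 peaks per Mb and lie below all others; in replicate 2 the inner section is the lowest section, at 26.2, while the tip section is at 39.3.

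On the left arm the replicates differed most in the tip section. Cut at its middle, the left arm has a tip section and an inner section. In the tip section replicate 1 had 41 peaks, or 16.8 per Mb (12.1 to 22.8), whereas replicate 2 had 96 peaks, or 39.3 per Mb (31.9 to 48.0). In its inner section the densities were 20.1 (14.9 to 26.5) in replicate 1 and 26.2 (20.2 to 33.5) in replicate 2. The right arm showed no such step, with 30.7 and 31.9 peaks per Mb in its inner and tip sections in replicate 1 and 35.6 and 41.7 in replicate 2. The first 1 Mb alone held 52 replicate 2 and 22 replicate 1 peaks, a ratio of replicate 2 to replicate 1 of 2.36 (1.41 to 4.09), against 1.44 (1.13 to 1.85) in the left tips of the other autosomes, a window singled out after its values were seen. Among the single left tips of the other autosomes this ratio ran from 1.12 (0.685 to 1.83) on I to 1.85 (1.14 to 3.08) on IV. Of the 52 replicate 2 peaks in the first 1 Mb of II, 35 had no counterpart in replicate 1. These 35 had a median score percentile of 36.3. Over the whole left arm the ratio of replicate 2 to replicate 1 peaks was 1.78 (1.36 to 2.33), over the centre 1.34 (1.14 to 1.57) and over the right arm 1.24 (0.944 to 1.62). The left-arm ratio divided by the right-arm one was 1.44 (0.980 to 2.11), an interval that includes 1.

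Windows of 1 Mb show where along II the density turned. The window with the lowest mean density was the one from 3000001 to 4000000, inside the left arm, with 14 peaks in replicate 1 and 16 in replicate 2. The next window, from 4000001 to 5000000, held 32 and 38 peaks but crosses the 4.88 Mb boundary. Inside the left arm, the stretch from 4000001 to 4500000 held 14 and 20 peaks, against 6 and 7 from 3500001 to 4000000. A step up from the preceding 500 kb thus lay before the boundary. Counts this high were not confined to the inner end, since the first 500 kb of the arm held 16 and 30 peaks. On the right the step fell close to the boundary. The window from 11000001 to 12000000 held 46 peaks in replicate 1 and 56 in replicate 2, and the one from 12000001 to 13000000 held 22 and 27. Beyond it, the window from 13000001 to 14000000 held 39 and 47, so the right arm was not uniformly sparse. The highest mean density was in the centre from 8000001 to 9000000, with 46 peaks in replicate 1 and 57 in replicate 2, where 23.8% of the bases were covered in both.

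Set against the other autosomes, chromosome II as a whole was close to the background in density. It had 30.0 peaks per Mb (27.4 to 32.9) in replicate 1 against 28.1 (26.8 to 29.4) on the other autosomes, a ratio of 1.07 (0.964 to 1.19). In replicate 2 the values were 42.1 (38.9 to 45.5) and 39.7 (38.2 to 41.3), a ratio of 1.06 (0.971 to 1.16). Both intervals include 1, and the pooled background averages chromosomes that lie on either side of II. The mean log2 ratio of II was -0.31 ± 0.01 to I, -0.28 ± 0.0046 to III, 0.28 ± 0.07 to IV and 0.65 ± 0.01 to V (SD, n = 2).

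The left-right balance was compared over the first and the last 33.3% of the length of each autosome. This was done because the boundaries of the arms were given for II alone. On II these sections spanned 5.09 Mb each, against arms of 4.88 Mb on the left and 3.26 Mb on the right. The right section thus took in more of the dense centre than the left one, so the ratios below are not those between the arms. Between the arms themselves the replicate 2 interval, 0.667 to 1.08, included 1. On II the left section had 102 and the right section 177 replicate 1 peaks, a ratio of 0.576 (0.447 to 0.739). In replicate 2 the counts were 173 and 219, a ratio of 0.790 (0.643 to 0.969). Over the other 4 autosomes together the ratio was 1.08 (0.960 to 1.21) in replicate 1 and 1.05 (0.952 to 1.16) in replicate 2. The ratio on II divided by the one on the other autosomes was 0.534 (0.404 to 0.705) in replicate 1 and 0.752 (0.598 to 0.944) in replicate 2, and both intervals lie below 1. As a mean log2 value this was -0.66 ± 0.35 (SD, n = 2).

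Set against single autosomes, the interval did not always lie below 1. Chromosome III leaned the same way in replicate 1, with a left-right ratio of 0.709 (0.561 to 0.893), and in replicate 2 had 0.946 (0.780 to 1.15). In the series-level list III had 0.890 (0.817 to 0.968), an interval below 1. The ratio of II divided by that of III was 0.813 (0.575 to 1.15) in replicate 1 and 0.835 (0.629 to 1.11) in replicate 2. In the series-level list it was 0.920 (0.811 to 1.04), and all of these intervals include 1. With each chromosome split at its midpoint instead, the value against III was 0.735 (0.563 to 0.960) in replicate 1, an interval below 1, and 0.887 (0.712 to 1.11) in replicate 2. The midpoint split mixes arms and centre. Over the first and last 25% of the length the value against III was 0.827 (0.540 to 1.27) in replicate 1. In replicate 2 it was 0.914 (0.655 to 1.28), and both of these intervals include 1. Over the 33.3% sections again, the value against IV, which leaned to the left, was 0.499 (0.348 to 0.713) in replicate 1 and 0.542 (0.403 to 0.728) in replicate 2. For I and V the interval lay below 1 in replicate 1, at 0.460 (0.330 to 0.641) and 0.414 (0.284 to 0.602), but included 1 in replicate 2, at 0.832 (0.632 to 1.09) and 0.822 (0.602 to 1.12). The mean log2 ratio of left to right was the lowest of the 5 autosomes on II, at -0.57 ± 0.32, against -0.29 ± 0.29 on III, 0.13 ± 0.28 on I, 0.21 ± 0.38 on V and 0.38 ± 0.24 on IV (SD, n = 2).

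**Figure D2:**
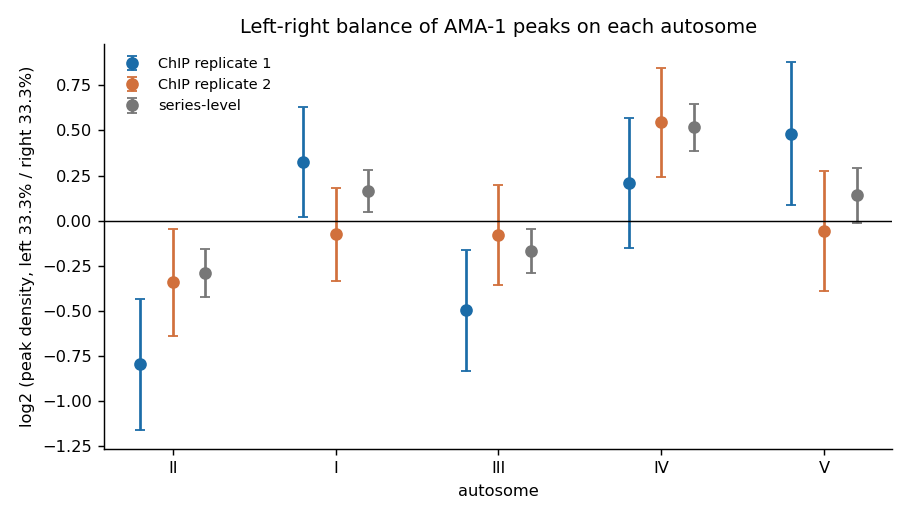
Left-right balance of AMA-1 peaks on the 5 autosomes, as the log2 ratio of peak density in the first 33.3% of the length to that in the last 33.3% (values below 0 mean fewer peaks on the left); points are the 2 ChIP replicates and the series-level list, bars exact 95% binomial intervals. On II the 3 lists lie at -0.80, -0.34 and -0.29, all with intervals below 0; on III they lie at -0.50, -0.08 and -0.17.

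Peaks of the centre were the widest on II. In replicate 1 the median width was 3073 bp on the left arm, 3774 bp in the centre and 2516 bp on the right arm. In replicate 2 the medians were 3042, 3793 and 2910 bp in the same order. Both arms thus had narrower peaks than the centre in both lists, with broadly overlapping quartiles, while II as a whole was close to the other autosomes, at 3236 bp against their 3200.5 bp in replicate 1 and at 3290 bp against 3240 in replicate 2. The left arm exceeded the right by a log2 ratio of median widths of 0.18 ± 0.16 (SD, n = 2), and in the series-level list, where peaks are far narrower, the order was the other way, 381 against 402.5 bp. Peaks wider than 8 kb made up 50 of the 459 replicate 1 peaks (10.9%, against 9.81% on the other autosomes) and 78 of the 643 replicate 2 peaks (12.1%, against 13.7%). Of these broad peaks 37 and 55 lay in the centre, which were 13.9% and 15.4% of its peaks. On the left arm there were 7 and 14 (7.78% and 8.75%) and on the right arm 6 and 9 (5.88% and 7.14%). The widest was a replicate 2 peak of 29143 bp in the centre.

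**Figure D3:**
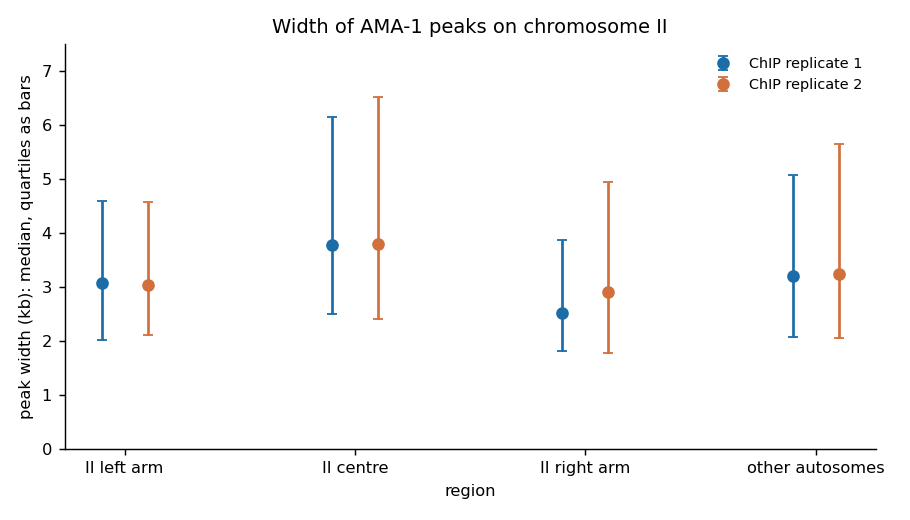
Width of AMA-1 peaks (kb) on the left arm, centre and right arm of II and on the other autosomes, for the 2 ChIP replicates; points are medians and bars run from the lower to the upper quartile. The centre medians, 3774 and 3793 bp, lie above those of both arms.

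Scores, the authors' own values from the peak caller, were compared as percentiles within each list because their scale is not given. The sparse left arm did not have weak peaks. Its median percentile was 54.0 in replicate 1, next to 52.8 in the centre and 47.8 on the right arm, and in replicate 2 the medians were 49.8, 53.2 and 47.2 in the same order. The difference between left and right arm was 4.35 ± 2.56 percentile points (SD, n = 2), and in the series-level list the left arm lay 5.97 points below the right. Many of the strongest peaks share a score of 3100, called the ceiling below, although a few peaks scored above it, up to 3217.26 in replicate 2. On II, 20 replicate 1 peaks (4.36%, against 4.03% on the other autosomes) and 82 replicate 2 peaks (12.8%, against 9.52%) scored 3100 or more. On the left arm these were 3 and 19 peaks (3.33% and 11.9% of its peaks). In the centre they were 14 and 47 (5.24% and 13.2%), and on the right arm 3 and 16 (2.94% and 12.7%).

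Overlapping peaks of the replicates were joined into domains, and 339 of the 706 domains on II held peaks of both. These shared domains numbered 65 on the left arm, or 13.3 per Mb (10.3 to 17.0), 203 in the centre, or 28.4 (24.7 to 32.6), and 71 on the right arm, or 21.8 (17.0 to 27.5). Their median width was 4524 bp on the left arm, 6005 bp in the centre and 4162 bp on the right arm. In 14 of them both replicates reached 3100. Of these, 10 lay in the centre, 1 on the left arm and 3 on the right, beside 203, 65 and 71 of all 339. The 4 strongest of each part, by mean score percentile over the replicates and then by bases covered in both, are described next.

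The strongest domain of the left arm ran from 2994606 to 3012570, and scored 3100 in both replicates. Its mean percentile of 96.2 was tied with domains in the centre and on the right arm. It ranked first on II only through its shared bases. It lies at the edge of the sparsest 1 Mb of the chromosome, spans 18.0 kb, of which 16.8 kb were covered in both, and held 8 series-level peaks with scores up to 81.7. The next on this arm, from 2450640 to 2456119, scored 2722.69 in replicate 1 and 3100 in replicate 2. The domain from 1144103 to 1154361 followed with 2398.94 and 3100, although its highest series-level score was only 26.9. The one from 3299746 to 3311388 scored 2285.74 and 3100, and its highest series-level score was 141.3, at percentile 99.8 of that list. Strong polymerase domains were thus present on the left arm. Of the first 20 of II it held 3, the centre 13 and the right arm 4. These lie near the portions of these parts among all 339 shared domains, which were 65, 203 and 71.

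In the centre the first 4 domains all scored 3100 in both replicates, so their order rests on the shared bases. The domain from 10536664 to 10558037 was the broadest of them at 21.4 kb, and its highest series-level peak, 13252 bp wide, scored 52.5. The one from 5653111 to 5670148 held 9 series-level peaks, the highest at 136.9. Narrower domains ran from 6344388 to 6352879 and from 11755413 to 11763181. The second of these is the simplest of the set, with 1 peak in each list. Its limits were almost the same in the replicates, 11755413 to 11763039 in replicate 1 and 11755549 to 11763181 in replicate 2. The series-level peak lay inside both, from 11756057 to 11762638.

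On the right arm 3 of the 4 named domains scored 3100 in both replicates. The first, from 13812021 to 13830092, was a single peak in each replicate, with 15.9 kb covered in both, and its highest series-level peak spanned 13699 bp, the widest of that list on II. The second, from 14393661 to 14409718, held 2 replicate 1 peaks under 1 replicate 2 peak. The third, from 14247406 to 14253141, was only 5.74 kb wide and had the highest series-level score of the 12 named domains, 145.6. The fourth, from 12987311 to 12996362, scored 2987.56 and 3100.

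The 3 widest shared domains lay in the centre and were not the strongest. The widest, from 8460841 to 8489983, spanned 29.1 kb, 1 peak in replicate 2 that covered 3 in replicate 1, with 15 series-level peaks inside it. It was number 49 by strength on II. The domain from 11612945 to 11638938 spanned 26.0 kb and was covered in both replicates over 25.7 kb of that. The one from 6583039 to 6606794 spanned 23.8 kb and again joined 3 replicate 1 peaks into 1 of replicate 2.

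Coverage shared by the replicates was also counted in windows of 100 kb, and the 5 highest windows were all in the centre. Behind the first, from 11700001 to 11800000 with 38.9 kb, came 4 windows between 8200001 and 9000000, which had 35.9, 34.1, 32.8 and 32.2 kb. Shared coverage of the median window was 8.57% of its bases over all of II, 4.70% on the left arm, 13.7% in the centre and 6.08% on the right arm. Windows with none numbered 11 of 49 on the left arm, 6 of 71 in the centre and 3 of 33 on the right arm. Over all of II such windows made up 13.1%, against 17.6% on the other autosomes.

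Replicate sharing, counted as an overlap of at least 1 bp, was on II close to that elsewhere. Of the 459 replicate 1 peaks, 390 overlapped a replicate 2 peak, 84.97% (Wilson interval 81.4 to 88.0) against 86.6% on the other autosomes, a difference of -1.62 percentage points (-5.47 to 1.77). Of the 643 replicate 2 peaks, 345 overlapped a replicate 1 peak, 53.7% (49.8 to 57.5) against 52.4%, a difference of 1.28 points (-3.03 to 5.54). Neither interval excludes 0. With reciprocal overlap of at least 50% of both widths the shares on II were 59.9% and 42.8%.

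Within II, sharing of replicate 2 peaks was lower on the left arm. There 65 of 160 replicate 2 peaks were found in replicate 1, 40.6% (33.3 to 48.4), against 72 of 126 on the right arm, 57.1% (48.4 to 65.4), a difference of -16.5 points (-27.6 to -4.85). In the centre the share was 58.3% (53.1 to 63.3). Replicate 1 peaks were found in replicate 2 at 82.2% (73.1 to 88.7) on the left arm, 80.4% (71.7 to 86.9) on the right arm and 87.6% (83.2 to 91.1) in the centre, with a left-right difference of 1.83 points (-9.43 to 12.7). The share in one direction depends on how many bases the other list covers, and replicate 1 covered least on the left arm, so the part that coverage plays in this was not tested.

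**Figure D4:**
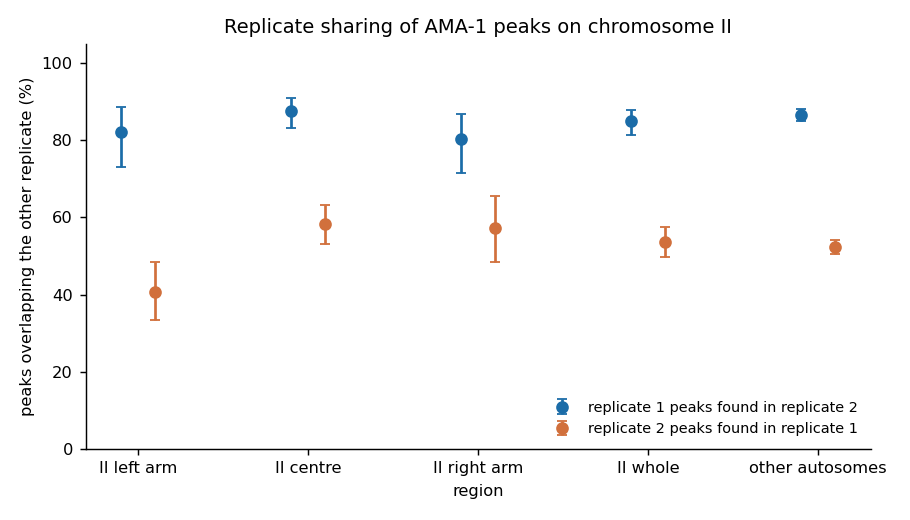
Percent of AMA-1 peaks that overlap a peak of the other replicate, by part of II, for II as a whole and for the other autosomes; bars are 95% Wilson intervals. The 40.6% of replicate 2 peaks on the left arm lie below the 57.1% on the right arm and the 58.3% in the centre, while the replicate 1 shares stay between 80.4% and 87.6%.

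Among shared peaks the density ratio of left to right arm was 0.603 in both replicates (0.434 to 0.835 in replicate 1, 0.424 to 0.855 in replicate 2), which are counts of largely the same sites. Among unshared peaks it was 0.534 (0.259 to 1.09) in replicate 1, from 16 and 20 peaks, and 1.17 (0.833 to 1.67) in replicate 2, from 95 and 54 peaks. Unshared replicate 2 peaks had densities with overlapping intervals, 19.5 per Mb (15.7 to 23.8) on the left arm, 20.9 (17.6 to 24.5) in the centre and 16.6 (12.4 to 21.6) on the right arm. Shared replicate 2 peaks had 13.3 (10.3 to 17.0), 29.1 (25.3 to 33.4) and 22.1 (17.3 to 27.8) per Mb in those parts. The unshared ones had a median width of 2379 bp on II against 4971 bp for shared ones, and a median percentile of 31.1 against 70.7.

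Sharing was also set out by score. In the lowest score quartile of replicate 1, 82 of 112 peaks on II were found in replicate 2, 73.2% against 81.3% on the other autosomes. These were 14 of 24 on the left arm (58.3%), 53 of 64 in the centre (82.8%) and 15 of 24 on the right arm (62.5%). In the lowest score quartile of replicate 2, 31 of 154 on II were found in replicate 1, 20.1% against 18.8%. Of the peaks at the ceiling, 19 of 20 on II were shared in replicate 1, against 73 of 76 on the other autosomes, and 81 of 82 in replicate 2, against 250 of 254. The exceptions on II, named after their values were seen, both lie on the left arm. A replicate 1 peak of 15973 bp from 4571808 to 4587780 had its nearest replicate 2 peak 7174 bp away. A replicate 2 peak from 2234789 to 2242372 had its nearest replicate 1 peak 15061 bp away, and both held series-level peaks, with scores up to 70.2 and 45.5.

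At 290 sites of II each replicate had exactly 1 peak matching 1 of the other. Their scores correlated with a Spearman rho of 0.67 and, as log10 values, a Pearson r of 0.64, beside 0.65 and 0.62 at 1141 sites of the other autosomes. Below the ceiling the rho was 0.55 over 223 sites, beside 0.50 over 953 of the other autosomes. By part the rho over all such sites was 0.71 for 57 of the left arm, 0.65 for 172 of the centre and 0.65 for 61 of the right arm. Below the ceiling it was 0.62 over 43, 0.55 over 131 and 0.42 over 49 sites in the same order. These are descriptions over sites that share the same pair of libraries. Widths were ranked alike too, with a rho of 0.76, and the replicate 2 peak was the wider at 217 sites (74.8%, against 78.2% on the other autosomes), with a median ratio of 1.12, against 1.17. The midpoints of the paired peaks lay a median of 268.8 bp apart, against 303 bp on the other autosomes.

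Some pairs disagreed widely, and the 4 with the largest gap between their score percentiles, and the first of that ranking on the left arm, are given here, chosen after their values were seen. The peak with the highest score of the whole replicate 2 list, 3217.26, ran from 5177588 to 5183606 in the centre. Its replicate 1 counterpart, from 5177995 to 5179674, scored 82.79, at percentile 18.3. At the far end of the centre, a replicate 2 peak from 11963065 to 11968045 scored 3100 over a replicate 1 peak with 57.64. Also in the centre, a replicate 1 peak from 11591510 to 11597089 scored 90.17 under a replicate 2 peak with 3100. The reverse occurred from 8774429 to 8784068, where the replicate 1 score was 2306.63 and that of replicate 2 was 105.49, and on the left arm from 2844937 to 2850991, with 888.11 in replicate 1 and 82.93 in replicate 2.

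**Figure D5:**
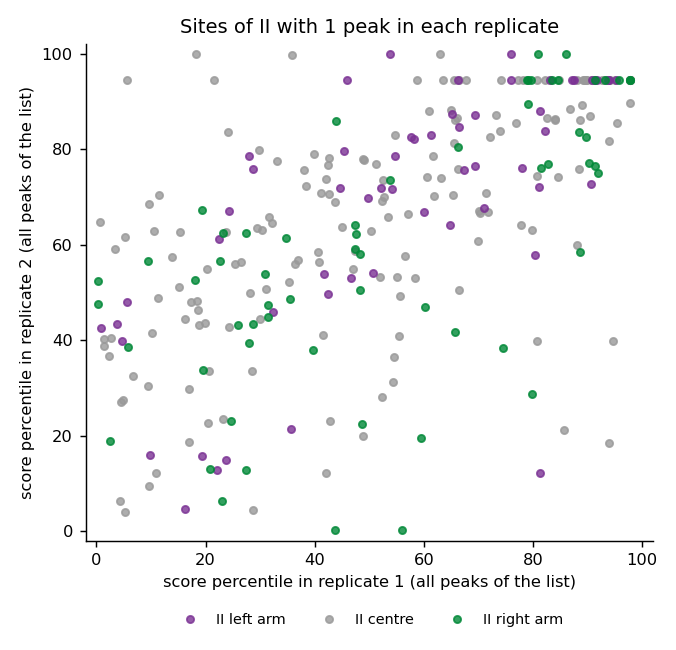
Score percentiles in replicate 1 (x axis) and replicate 2 (y axis) at the 290 sites of II with exactly 1 peak in each list, by part of the chromosome; percentiles are ranks within the whole list. The sites follow a rising but wide band (Spearman rho 0.67), and the row at percentile 94.5 of replicate 2 is the shared score of 3100.

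Peaks of II were clustered to much the same degree as elsewhere. A neighbour within 5 kb in the same list was found for 264 of 459 replicate 1 peaks (57.5%, 53.0 to 62.0, against 57.9% on the other autosomes) and for 408 of 643 replicate 2 peaks (63.5%, 59.7 to 67.1, against 65.3%). On the left arm the shares were 54.4% (44.2 to 64.3) and 58.75% (51.0 to 66.1), in the centre 60.3% (54.3 to 66.0) and 70.0% (65.1 to 74.5), and on the right arm 52.9% (43.3 to 62.3) and 50.8% (42.2 to 59.4). The sparse left arm thus still held its peaks in groups. The median distance from 1 peak to the next was 28.4 kb on that arm in replicate 1, against 9.91 kb on the right arm, while in replicate 2 the medians were 9.41 and 10.4 kb.

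Long stretches without a peak in either replicate accounted for much of the left arm. Stretches over 50 kb made up 52.6% of the left arm, 17.7% of the centre and 37.6% of the right arm. Those over 100 kb numbered 10 on the left arm, 3 in the centre and 2 on the right arm. The longest on II lay just inside the right arm, from 12346141 to 12670231, at 324.1 kb, with 3 series-level peaks. The other 4 of the 5 longest were on the left arm, from 1821204 to 2060872 (239.7 kb), from 3599294 to 3812220 (212.9 kb), from 3089167 to 3290863 (201.7 kb) and from 4168903 to 4294717 (125.8 kb). The stretch from 3089167 to 3290863 held 10 series-level peaks with scores up to 36.0, the most of the 5. Per Mb, II had 0.982 stretches over 100 kb, between the 0.363 of III and the 1.87 of V.

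The narrower peaks of the series-level list were sorted by the replicate peaks they overlapped. On the left arm 160 of 743 (21.5%) lay in peaks of both replicates, 40 (5.38%) in replicate 1 only, 321 (43.2%) in replicate 2 only and 222 (29.9%) in neither. In the centre the shares were 39.4%, 6.60%, 35.1% and 18.9%, and on the right arm 27.8%, 10.5%, 32.1% and 29.6%, against 32.6%, 6.37%, 35.2% and 25.7% on the other autosomes. Peaks found in both replicates were sparser on the left arm than on the right, with a density ratio of 0.681 (0.543 to 0.854), and so were those in replicate 1 only, at 0.453 (0.295 to 0.688). For replicate 2 only the ratio was 1.18 (0.984 to 1.43), and for neither 0.888 (0.723 to 1.09). The classes are set by the replicate lists and so carry the asymmetry of those lists. Peaks found in neither had densities whose intervals overlapped in all parts, 45.5 per Mb (39.7 to 51.9) on the left arm, 44.5 (39.8 to 49.7) in the centre and 51.2 (43.8 to 59.6) on the right arm, and these had median widths of 252.5, 265 and 256 bp.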

How the data were processed

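The authors deposited 3 peak lists of AMA-1 ChIP-seq: 1 for each of the 2 ChIP replicates and 1 for the series. Per the submitters' processing notes the aligner was BWA and the build ce10. Per the file headers all coordinates are in WormBase WS220, and the source columns name MACS (replicates) and MACS v2 (series). Not given in the sources used here are peak thresholds, the control and how the series-level list was made. Positions are the deposited start and end of each peak, and the deposited score is the peak caller's own value, on an unstated scale. Read depth is unknown.

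Computed here were peak counts by midpoint, densities, covered bases, widths, score percentiles within each whole list (ties averaged), overlaps of at least 1 bp, and domains of overlapping replicate peaks. The length of a chromosome was the highest peak end over the 3 lists, 15278753 bp for II. Intervals are at 95%: exact Poisson for densities, exact conditional binomial for density ratios, conditional for ratios of ratios, Wilson for shares and Newcombe for their differences. With 2 replicates no test over samples was made and no p-value is given. Named regions were the 4 shared domains of each part with the highest mean percentile, the 3 widest, the 5 windows of 100 kb with most shared bases, the 5 longest stretches without peaks and the extreme 1 Mb windows. The division of II, the lists and the regions were chosen with earlier results of these data known. Functions were tested on simulated data. The software was scipy 1.17.1, pandas 2.3.3, numpy 2.4.6 and matplotlib 3.10.9 under Python 3.11.15.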

Additional observations from a re-analysis of the deposited data

How the results depend on the processing

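Of 50 alternative values for 8 results, 37 stayed within the spread of the replicates or the counting interval, 11 moved beyond it and 2 reversed. The values without one replicate always lie within that spread with 2 replicates, so they show no stability. The log2 ratio of left to right arm, -0.50, was below 0 in all 9 alternatives, from -0.76 without replicate 2 to -0.18 in the series-level list, and was -0.69 without the outermost 1 Mb of both arms, chosen after seeing the data. Leaving out a replicate gave -0.76 to -0.24 for this ratio, 0.51 to 0.66 for centre over arms, 0.08 to 0.10 for II over the other autosomes, -0.90 to -0.41 for left over right on II relative to the other autosomes, 0.06 to 0.29 for the log2 width ratio and 2.54 to 6.16 points for the score difference. The log2 ratio of centre to arms, 0.59, was 0.96 in covered bases, 0.70 for peaks at or above the list's median score and 0.36 with arms of 33.3% of the length each. That of II to the other autosomes, 0.09, was 0.13 in covered bases, 0.15 for peaks at or above the median score, 0.10 with peaks closer than 500 bp merged and 0.021 in the series-level list. On II, 59.9% of replicate 1 peaks met a replicate 2 peak with reciprocal overlap of 50%, and replicate 2 peaks met one of replicate 1 in 47.3% of cases with 50% of the own width and in 42.8% with reciprocal overlap. In the series-level list the log2 width ratio of left to right arm reversed to -0.079 and the score difference to -5.97 points. For shared peaks alone the score difference was 9.93 points. What causes these shifts was not tested. Shares need both lists, so no replicate could be left out of them. No paired analysis was possible because the inputs, which share the replicate numbers, are not analysed here. Since read depth is unknown, what depth limits cannot be said.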
